A study of Homo sapiens with 12 samples.

Results

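The 10 genes described here encode the replicative helicase and the factors that place it on DNA before replication. MCM2, MCM3, MCM4, MCM5, MCM6 and MCM7 encode the subunits of the helicase ring, and MCM10, CDC6, CDT1 and GMNN encode the factors that load, activate or restrain it. They were chosen by gene symbol, and all 10 were among the 14862 genes of the normalized count table and the 60279 genes of the FPKM table. Replication origins are licensed in G1 phase, when the origin recognition complex and CDC6 receive MCM2 to MCM7 from CDT1 and close the rings around DNA. Geminin, the product of GMNN, binds CDT1 once S phase has begun, so that origins are not licensed again. The genes are known as targets of E2F transcription factors, and their mRNAs peak around the entry into S phase.

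RNA was measured by sequencing of polyadenylated transcripts in parental hTERT-RPE1 cells, a human retinal pigment epithelial line made immortal with telomerase. The siCENPF group received an siRNA against CENPF, which encodes a large kinetochore protein, and the siFOXM1 group received an siRNA against FOXM1, a transcription factor that drives genes of G2 and M phase. The siCENPF+siFOXM1 group received both siRNAs and the siNeg group a negative-control siRNA. All 4 groups were of this parental line, received 20 nM of siRNA overnight and were collected 48 hours later. Whether the 20 nM was of each siRNA or in total where both were given, and whether a reagent was a single duplex or a pool, are points on which the sources used here are silent. The labels number 3 libraries per group from 1 to 3, and all knockdown groups are set against the same siNeg libraries. No label states that replicates came from separate cultures, so p-values reflect only how these samples spread, which may be technical. In these bulk samples, fewer cells near S phase and less RNA per cell cannot be told apart.

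Both knockdowns were visible in the libraries that carried them. CENPF stood at 10.8% of its siNeg mean with siCENPF and at 15.8% with siCENPF+siFOXM1, and FOXM1 at 15.2% with siFOXM1 and 17.7% with siCENPF+siFOXM1. Reads counted in genes ran from 13671250 to 17968360 in 10 libraries, and library 3 of siCENPF and library 3 of siNeg stood apart with 31302177 and 35411230. Of 10 markers of retinal pigment epithelium, 2 (BEST1 and MITF) reached 1 FPKM in at least 1 library, and RPE65 and TYR were listed at 0 in every library. The epithelial keratins KRT8 and KRT18 were at 14.9 FPKM or more throughout, while KRT7, also on that list, was at 0.92 to 3.29 FPKM. The summed level of 4 blood and endothelial markers was 0.228 FPKM at most, of 4 neural markers 1.56 FPKM and of 4 keratinocyte markers 2.69 FPKM.

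Sequence upstream of the genes is shown because E2F sites are the element by which these genes are best known. RefSeq windows on GRCh38.p14, reaching from 250 bases before to 50 bases after a start, were matched by symbol for 8 members, in 11 windows, and windows of MCM4 and MCM5 were not used here. The letters TTTCCCGC, TTTCGCGC, TTTGCCGC and TTTGGCGC were searched on both strands. They stood in 7 of the 11 windows and in 7 of the 8 members (all but MCM10), against 3.31% of 35116 windows of the same length and 3.99% of 27305 genes. A match describes the letters and not a bound site. The stretches of 30 bases below run 5′ to 3′ on the gene's own strand, and capitals mark the E2F letters of either strand.
MCM2, chr3:127598404-127598433, plus strand: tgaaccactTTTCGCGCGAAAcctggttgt
MCM3, chr6:52284898-52284927, minus strand: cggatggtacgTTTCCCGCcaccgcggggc
MCM3, chr6:52284728-52284757, minus strand: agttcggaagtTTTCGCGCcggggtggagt
MCM6, chr2:135876575-135876604, minus strand: ggctttgcaTTTGGCGCGAAAtccctttcc
MCM6, chr2:135876513-135876542, minus strand: ttggtcaggTTTGGCGCGAAAtctccagct
MCM7, chr7:100101566-100101595, minus strand: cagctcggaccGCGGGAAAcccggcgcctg
MCM7, chr7:100101388-100101417, minus strand: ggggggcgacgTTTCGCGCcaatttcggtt
CDC6, chr17:40287875-40287904, plus strand: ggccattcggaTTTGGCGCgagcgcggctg
CDT1, chr16:88803743-88803772, plus strand: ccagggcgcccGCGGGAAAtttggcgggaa
GMNN, chr6:24775322-24775351, plus strand: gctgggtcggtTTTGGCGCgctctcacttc

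In MCM2 and in both stretches of MCM6, matches on the 2 strands overlap and give a run of 12 capital letters. Other elements of cell cycle promoters were searched in the same windows, on both strands. TTTGAA, the letters of the cell cycle homology region, stood in 0 of the 8 members, against 18.17% of genes. TAAACA, letters bound by forkhead factors such as FOXM1, stood in 1 of 8 (MCM7), against 14.67% of genes, and CCAAT in 6 of 8, against 39.72%. That letters are absent from a window says nothing of the factor.

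All 6 subunits of the helicase ring had lower means in every knockdown group than in siNeg. The spread between replicate numbers was of the same size as these differences, and no difference passed a test unless the replicate number was part of the fit. Values below are normalized counts of libraries 1, 2 and 3, in that order, and fold changes are differences in log2(normalized count + 1) fitted with limma over all 12 libraries. Adjusted p-values are over 14857 genes by the Benjamini-Hochberg method, with a threshold of 0.05, and are given without and with a replicate block, a term for the replicate number. The block was added because libraries of the same number deviated together.

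**Figure D1:**
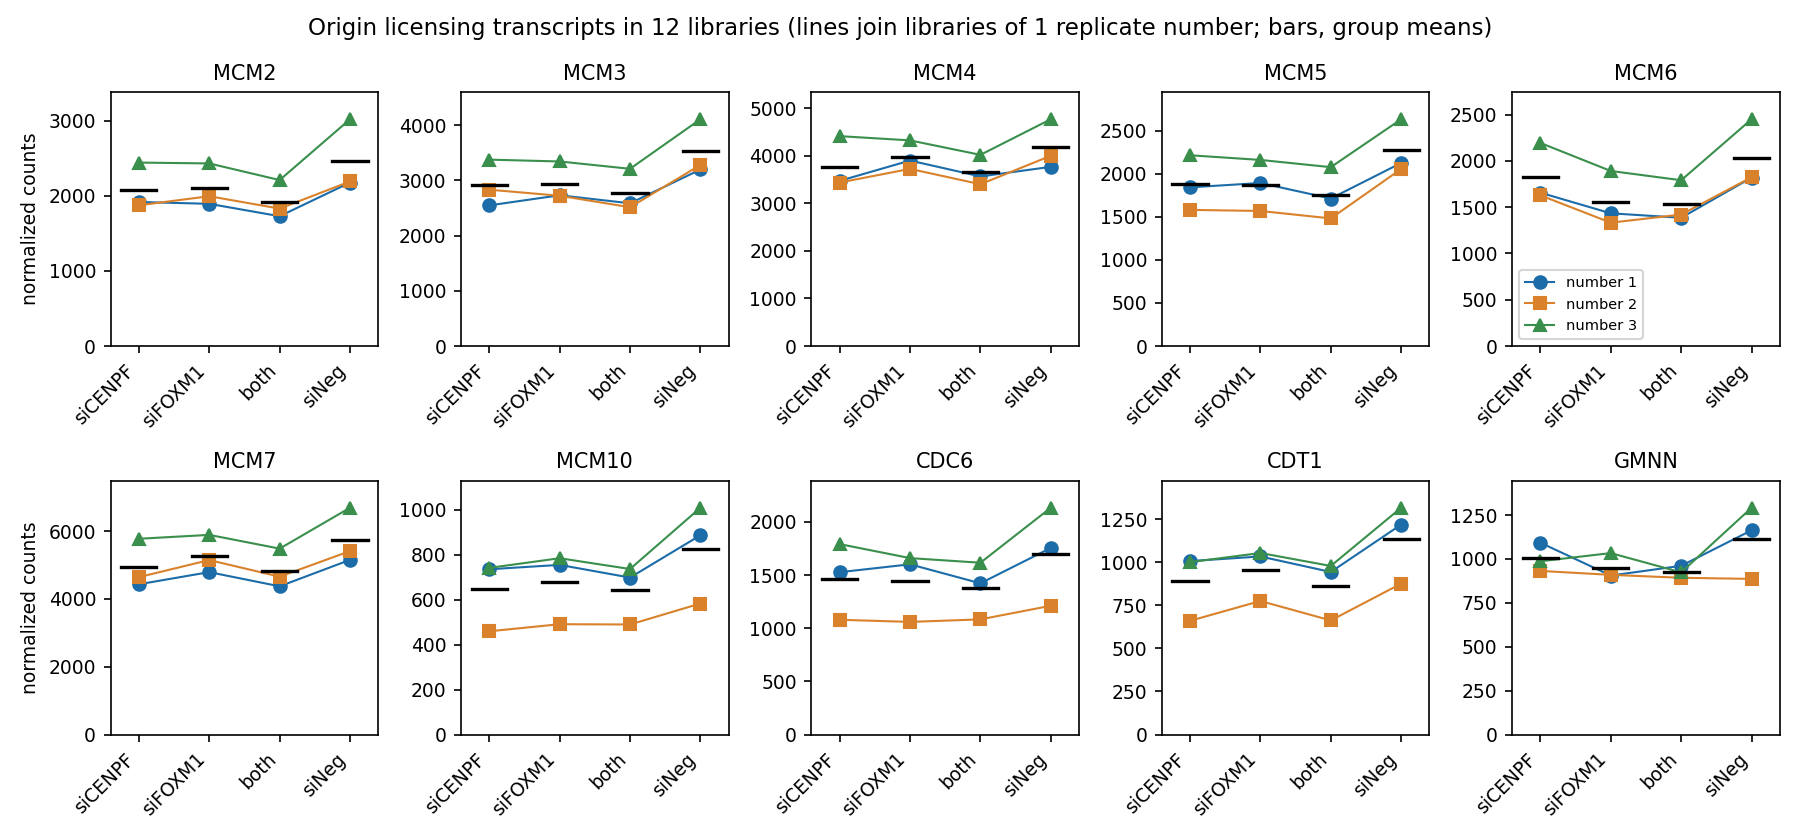
Normalized counts (vertical axes, from 0) of the 10 transcripts in the 3 libraries of siCENPF, siFOXM1, both siRNAs and siNeg; each line joins the libraries of 1 replicate number and black bars are group means. Library 3 of siNeg is the highest of all 12 libraries for 10 of 10 genes, and libraries numbered 2 lie lowest in all 4 groups for MCM5, MCM10, CDC6 and CDT1.

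MCM2 (ENSG00000073111, chromosome 3, 127598223 to 127622436, hg38) encodes a subunit that also binds histones and, with MCM5, forms the gate of the ring. It had 1920, 1875 and 2445 normalized counts with siCENPF, 1895, 1997 and 2433 with siFOXM1, 1730, 1831 and 2212 with siCENPF+siFOXM1, and 2179, 2193 and 3023 with siNeg. Library 3 was the highest in each group, and every knockdown group overlapped siNeg. The log2 fold change was -0.24 with siCENPF (limma adjusted p = 1.00 without and 0.00763 with the block), -0.22 with siFOXM1 (0.836 and 0.01) and -0.35 with siCENPF+siFOXM1 (0.653 and 9.3e-05). Exons of MCM2 share 45 bases with TPRA1 and 1113 bases with an antisense gene on the opposite strand. No source used here states whether counting used strand, so part of the MCM2 value is uncertain.

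MCM5 (ENSG00000100297, chromosome 22, 35400063 to 35425430), the partner of MCM2 at the gate, had 1841, 1580 and 2213 normalized counts with siCENPF, 1891, 1567 and 2159 with siFOXM1, 1712, 1480 and 2075 with siCENPF+siFOXM1, and 2124, 2055 and 2632 with siNeg. Libraries numbered 2 were the lowest and those numbered 3 the highest in all 4 groups, and the groups overlapped. Its log2 fold change was -0.28 with siCENPF (limma adjusted p = 1.00 without and 0.00220 with the block), -0.28 with siFOXM1 (0.759 and 0.00119) and -0.38 with siCENPF+siFOXM1 (0.639 and 4.42e-05).

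MCM3 (ENSG00000112118, chromosome 6, 52264009 to 52284881), whose yeast counterpart makes the contact between the arriving ring and the loader, had 2545, 2829 and 3374 normalized counts with siCENPF, 2729, 2720 and 3340 with siFOXM1, 2583, 2512 and 3208 with siCENPF+siFOXM1, and 3195, 3277 and 4105 with siNeg. In each knockdown group library 3 alone reached into the siNeg range. The log2 fold change was -0.27 with siCENPF (limma adjusted p = 0.947 without and 0.00101 with the block), -0.26 with siFOXM1 (0.697 and 0.000905) and -0.35 with siCENPF+siFOXM1 (0.566 and 3.84e-05).

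MCM4 (ENSG00000104738, chromosome 8, 47960185 to 47978160) and MCM6 (ENSG00000076003, chromosome 2, 135839626 to 135876426) encode subunits whose tails are phosphorylated by the CDC7 kinase when origins fire. MCM4 had 3475, 3440 and 4417 normalized counts with siCENPF, 3904, 3728 and 4328 with siFOXM1, 3568, 3404 and 4023 with siCENPF+siFOXM1, and 3771, 4004 and 4773 with siNeg. Every knockdown group overlapped siNeg, and siFOXM1 library 1 stood above its siNeg counterpart. MCM4 had a log2 fold change of -0.15 with siCENPF (limma adjusted p = 1.00 without and 0.106 with the block) and -0.06 with siFOXM1 (0.977 and 0.512), and its -0.19 with siCENPF+siFOXM1 passed with the block only (0.828 and 0.0234).

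MCM6 had 1656, 1627 and 2193 normalized counts with siCENPF, 1433, 1332 and 1890 with siFOXM1, 1385, 1419 and 1790 with siCENPF+siFOXM1, and 1819, 1823 and 2449 with siNeg. All libraries given both siRNAs lay below all siNeg libraries, which held for no other of the 10 genes in any comparison (1 of 10 members, against 6.58% of all genes; 0 of 10 with siCENPF, against 4.44%, and 0 of 10 with siFOXM1, against 6.83%). The log2 fold change was -0.15 with siCENPF (limma adjusted p = 1.00 without and 0.121 with the block), -0.39 with siFOXM1 (0.595 and 2.05e-05) and -0.40 with siCENPF+siFOXM1 (0.623 and 1.59e-05).

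MCM7 (ENSG00000166508, chromosome 7, 100092728 to 100101940), the subunit that is ubiquitylated when the helicase is unloaded, had 4433, 4644 and 5776 normalized counts with siCENPF, 4792, 5148 and 5891 with siFOXM1, 4373, 4657 and 5485 with siCENPF+siFOXM1, and 5155, 5413 and 6693 with siNeg. Libraries 1 and 2 of each knockdown group lay below the siNeg range, and library 3 within it. The log2 fold change was -0.22 with siCENPF (limma adjusted p = 1.00 without and 0.00506 with the block), -0.12 with siFOXM1 (0.924 and 0.118) and -0.25 with siCENPF+siFOXM1 (0.780 and 0.000933). Exons of MCM7 share 392 bases with AP4M1 on the opposite strand, whose reads may be counted in part with it.

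CDC6, CDT1 and MCM10 showed a second pattern over the replicate numbers, with number 2 farther below number 1 than in MCM5. CDC6 (ENSG00000094804, chromosome 17, 40287633 to 40304657), the ATPase that joins the origin recognition complex to load the ring, had 1526, 1079 and 1791 normalized counts with siCENPF, 1601, 1059 and 1659 with siFOXM1, 1422, 1083 and 1615 with siCENPF+siFOXM1, and 1755, 1211 and 2133 with siNeg. Library 2 was the lowest in every group, below all libraries numbered 1 or 3. Its log2 fold change was -0.21 with siCENPF (limma adjusted p = 1.00 without and 0.0516 with the block), -0.23 with siFOXM1 (0.930 and 0.0168) and -0.29 with siCENPF+siFOXM1 (0.915 and 0.00288).

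CDT1 (ENSG00000167513, chromosome 16, 88803213 to 88809258), which brings the ring to the origin, had 1008, 660 and 1002 normalized counts with siCENPF, 1035, 776 and 1055 with siFOXM1, 944, 663 and 979 with siCENPF+siFOXM1, and 1220, 877 and 1318 with siNeg. Library 2 was again the lowest of each group, and each knockdown library lay below the siNeg library of its number. The log2 fold change was -0.36 with siCENPF (limma adjusted p = 1.00 without and 0.000836 with the block), -0.25 with siFOXM1 (0.890 and 0.0168) and -0.40 with siCENPF+siFOXM1 (0.788 and 0.00018).

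MCM10 (ENSG00000065328, chromosome 10, 13161554 to 13211104), which acts when the loaded helicase is activated and is no part of the ring, had 735, 459 and 741 normalized counts with siCENPF, 754, 490 and 784 with siFOXM1, 698, 489 and 736 with siCENPF+siFOXM1, and 886, 582 and 1008 with siNeg. Library 2 was the lowest in all 4 groups. The log2 fold change was -0.35 with siCENPF (limma adjusted p = 1.00 without and 0.00337 with the block), -0.28 with siFOXM1 (0.907 and 0.0136) and -0.35 with siCENPF+siFOXM1 (0.887 and 0.00246).

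GMNN (ENSG00000112312, chromosome 6, 24774931 to 24786099), the inhibitor of CDT1, had 1093, 932 and 987 normalized counts with siCENPF, 906, 910 and 1034 with siFOXM1, 961, 893 and 924 with siCENPF+siFOXM1, and 1164, 887 and 1292 with siNeg. Library 2 of siNeg was the lowest of the 12 and library 3 of siNeg the highest, so the siNeg range covered every knockdown library. With limma over all 12 libraries GMNN did not pass in any comparison. By edgeR with the block GMNN passed with siCENPF+siFOXM1 against siNeg (adjusted p = 0.0374). Its log2 fold change was -0.14 with siCENPF (limma adjusted p = 1.00 without and 0.421 with the block), -0.22 with siFOXM1 (0.758 and 0.107) and -0.25 with siCENPF+siFOXM1 (0.727 and 0.0578).

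**Figure D2:**
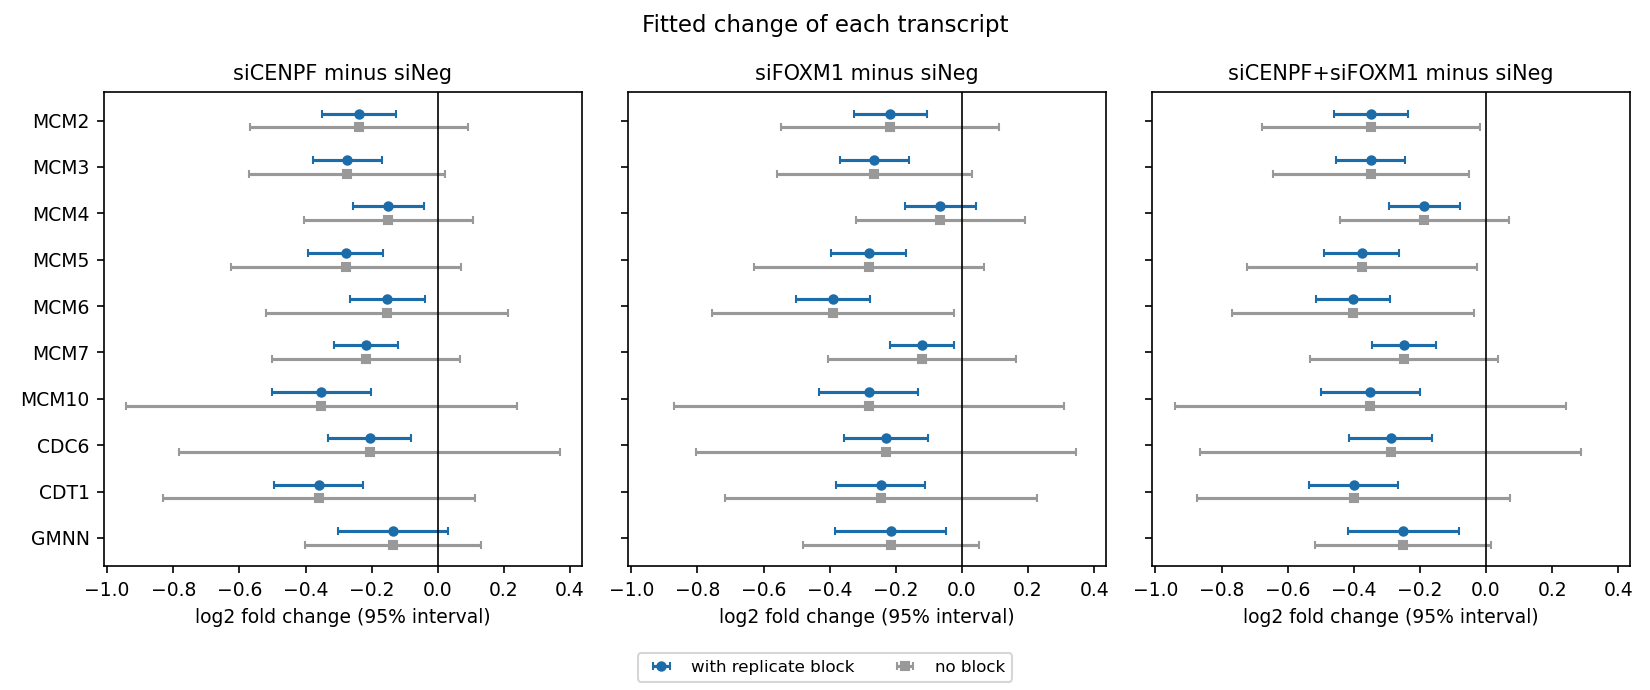
Fitted log2 fold change (horizontal axis) of each transcript in each of the 3 knockdown groups against siNeg (siCENPF, siFOXM1, siCENPF+siFOXM1), with 95% intervals from limma with the replicate block (blue) and without it (grey). The estimates coincide, and the block narrows the interval, for MCM6 with siFOXM1 to an SE of 0.05, against 0.17 without it.

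The comparison of siCENPF with siNeg shows what changed with the CENPF siRNA, and whether it changed through CENPF was not tested. With the block, MCM2, MCM3, MCM5, MCM7, MCM10 and CDT1 fell, 6 of 10 members, where 1.66% of all genes were called lower and 2.86% higher. Without it 0 of 10 passed, where 0.121% of all genes were called lower, and 0 had an unadjusted p under 0.05 by limma, edgeR or DESeq2. Means of the 6 that fell lay between 0.779-fold (CDT1) and 0.860-fold (MCM7) of siNeg. The median log2 fold change over the 10 members was -0.23, with 10 of 10 below 0, against a median of 0.00 over all genes, of which 50.19% were below 0. With 1 library left out of the blocked fit at a time, MCM3, MCM5, MCM7, MCM10 and CDT1 were called in all 6 fits, and MCM2 was not called without siNeg library 3. With a whole replicate number left out, 3 members were called without number 1 (MCM5, MCM10 and CDT1), 7 without number 2 and 3 without number 3 (MCM3, MCM5 and CDT1).

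The comparison of siFOXM1 with siNeg shows what changed with the FOXM1 siRNA, and whether it changed through FOXM1 was not tested. With the block, MCM2, MCM3, MCM5, MCM6, MCM10, CDC6 and CDT1 fell, 7 of 10 members, where 4.23% of all genes were called lower and 4.48% higher. Without it 0 of 10 passed (0.384% of all genes were called lower) by limma, edgeR or DESeq2, and 1 had an unadjusted p under 0.05 by each tool. MCM6 stood farthest below siNeg, at 0.763-fold, and MCM4 nearest to it, at 0.956-fold. The median log2 fold change was -0.24, with 10 of 10 members and 50.19% of all genes below 0. MCM3, MCM5 and MCM6 were called in all 6 blocked fits with 1 library left out. MCM2 and CDT1 were not called without siFOXM1 library 1 or 3 or siNeg library 3, MCM10 without siFOXM1 library 2 or 3 or siNeg library 3, and CDC6 without siFOXM1 library 2 or 3 or siNeg library 1 or 3. Without a whole replicate number, 3 members were called without number 1 (MCM3, MCM5 and MCM6), 8 without number 2 and 2 without number 3 (MCM5 and MCM6).

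The comparison of siCENPF+siFOXM1 with siNeg gave the most calls. With the block, 9 of 10 members fell, all but GMNN, where 3.72% of all genes were called lower and 4.18% higher. Without it 0 of 10 passed (0.229% of all genes were called lower), and 4 had an unadjusted p under 0.05 by limma and 5 each by edgeR and DESeq2, which also called 0. The median log2 fold change was -0.35, with 10 of 10 members and 50.68% of all genes below 0, and fold values ran from 0.757 (MCM6) to 0.879 (MCM4). With 1 library left out of the blocked fit, 8 members kept their call in all 6 fits, and MCM4 was not called without library 2 or 3 of either group. Without replicate number 1, 2 or 3, the blocked fit called 8, 9 and 5 members. In the authors' deposited table of edgeR results, 0 of the 10 members was marked up or down in any of the 3 comparisons, and their adjusted p-values ran from 0.650 to 1.00.

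Differences within each replicate number are the values that the blocked estimate averages, so they show its spread and give no separate support. With siCENPF, 9 of 10 members were lower than in siNeg within each of the 3 numbers, against 17.6% of all genes. With siFOXM1 it was 8 of 10, against 22.0%, and with siCENPF+siFOXM1 9 of 10, against 21.3%. The exceptions were GMNN, at log2 0.07, 0.04 and 0.01 in number 2 of siCENPF, siFOXM1 and siCENPF+siFOXM1, and MCM4, at 0.05 in number 1 of siFOXM1. The median difference over the members was -0.20, -0.22 and -0.27 in numbers 1, 2 and 3 with siCENPF, -0.21, -0.18 and -0.32 with siFOXM1, and -0.31, -0.26 and -0.41 with siCENPF+siFOXM1. The difference was largest in number 3 in all 3 comparisons, which share siNeg library 3, the deepest library.

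**Figure D3:**
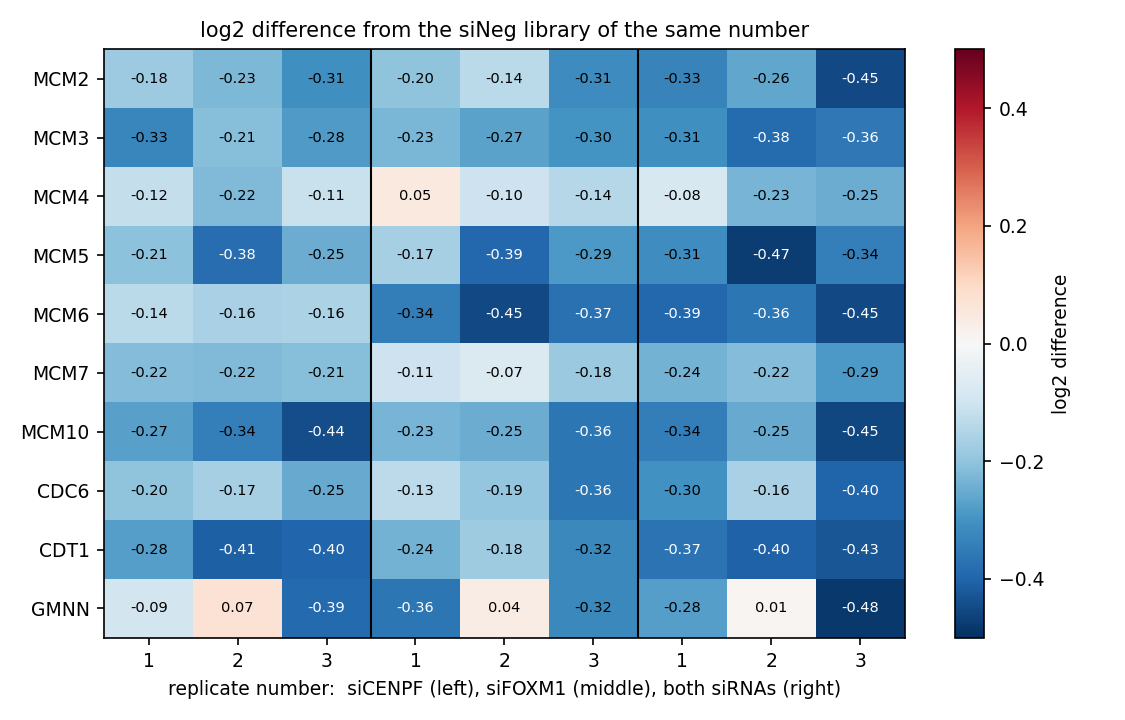
Difference in log2(normalized count + 1) between each knockdown library and the siNeg library of the same number (colour and printed value), for 10 genes (rows) and numbers 1 to 3 of siCENPF, siFOXM1 and both siRNAs (columns). Of 30 differences per knockdown group, 29, 28 and 29 are below 0, and the 4 above 0 belong to GMNN in number 2 and MCM4 in number 1 of siFOXM1.

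Library 3 of siNeg had the highest count of all 12 libraries for 10 of 10 members, and the comparison without the block leans on it. Without it and without the block, the median log2 fold change of the members was -0.09 with siCENPF, -0.11 with siFOXM1 and -0.19 with siCENPF+siFOXM1. In that fit, which kept the knockdown libraries numbered 3, MCM4 stood at 0.03 with siFOXM1. Blocked fits that left out this or another library of the compared groups were also run, chosen after seeing the data. Their medians ran from -0.20 to -0.25 with siCENPF, -0.20 to -0.26 with siFOXM1 and -0.30 to -0.36 with siCENPF+siFOXM1. Without all 4 libraries numbered 3, a fit chosen after seeing the data, the medians were -0.21, -0.19 and -0.30 for these groups, and 0 members passed without the block. The part of depth in this was not tested.

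The replicate numbers moved the genes by amounts comparable to the knockdowns. Averaged over the 4 groups, MCM2 to MCM7 were higher in number 3 than in number 1 by 0.25 (MCM4) to 0.40 (MCM6) on the log2 scale. MCM10, CDC6 and CDT1 differed little between those numbers (0.08, 0.19 and 0.05) but were lower in number 2 than in number 1, with differences of -0.60, -0.51 and -0.50. Differences between numbers 2 and 1 in MCM2, MCM3, MCM4, MCM6 and MCM7 stayed between -0.02 and 0.08, and MCM5 stood at -0.19. The range of the number means exceeded the range of the group means for 8 of the 10 genes, all but MCM3 and GMNN. No source used here says what the numbers stand for, such as a day, a passage or a preparation.

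Between the single knockdowns 0 of 10 members differed without the block, and MCM6 did with it. In the comparison of siFOXM1 with siCENPF, chosen after seeing the data, MCM6 was lower in the FOXM1 knockdown (-0.24 on the log2 scale, SE 0.05; limma with the block, adjusted p = 0.00673), and it was the 1 member of 10 that passed, a share near the 7.57% of all genes that did in either direction. Without the block its adjusted p was 0.891, and with the block it was not called when siFOXM1 library 2 was left out. For MCM2, MCM3 and MCM5 the blocked 95% intervals of the same difference were -0.09 to 0.13, -0.09 to 0.11 and -0.12 to 0.11 on the log2 scale. The difference was 0.10 for MCM7 (unadjusted p = 0.05, adjusted p = 0.246 with the block) and 0.08 for MCM4 (adjusted p = 0.376).

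The comparison of siCENPF+siFOXM1 with siCENPF asks what the FOXM1 siRNA adds to the CENPF siRNA, and it shares the 3 siCENPF libraries with the comparison above. CENPF itself was not at the same level in these groups. It stood 0.55 higher on the log2 scale with both siRNAs (limma adjusted p = 0.000188 with and 0.0619 without the block). In this comparison MCM6 had a log2 fold change of -0.25 (SE 0.05, limma adjusted p = 0.0135 with and 1.00 without the block). MCM6 was the 1 member of 10 called with the block, where 1.46% of all genes were. It was not called when library 1 or 3 of either group was left out. Between siCENPF+siFOXM1 and siFOXM1, 0 of 10 members passed with the block, where 0.296% of all genes did, and 4 had an unadjusted p under 0.05 (MCM2, MCM4, MCM7 and CDT1). Their log2 fold changes were -0.13, -0.12, -0.13 and -0.16, while MCM6 stood at -0.01 with a blocked 95% interval of -0.12 to 0.10.

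With all 12 libraries the estimate with both siRNAs was nearer to 0 than the sum of the single changes in 10 of 10 members, but this difference passed for none, and its direction rests on siNeg library 3 where no block is used. The interaction, which is the log2 change with both siRNAs minus the sum of the changes with each, ran from 0.03 (MCM4) to 0.28 (MCM10). With the block 0 of 10 members passed, where 0.841% of all genes did, and MCM3, MCM5, MCM10 and CDT1 had an unadjusted p under 0.05 (adjusted p = 0.384, 0.466, 0.355 and 0.520). All 4 group means enter the interaction, siNeg with a positive sign, so a high siNeg library raises it. Without siNeg library 3 and without the block, the median interaction of the members was -0.01, with 6 of 10 below 0, against 0.14 with all libraries and 0 of 10 below 0. With the block the median without that library was 0.12, with 0 of 10 below 0. The siRNA targets had positive interactions too. CENPF stood at 0.70 (limma adjusted p = 0.00112 with and 0.221 without the block) and FOXM1 at 0.46 (0.520 with the block). Both were at a higher share of siNeg with both siRNAs than with their own siRNA alone. The part of this in the members' interaction was not tested.

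The proportions between subunit transcripts were described by dividing each subunit by the geometric mean of the other 5 in the same library, which removes shifts common to the ring. MCM6 stood at 0.611 to 0.642 with siCENPF, 0.481 to 0.558 with siFOXM1, 0.532 to 0.563 with siCENPF+siFOXM1 and 0.575 to 0.610 with siNeg. Both groups given the FOXM1 siRNA thus lay below siNeg without overlap. The siCENPF group lay just above siNeg, with 0.611 at its lowest against 0.610 at most in siNeg. MCM4 stood at 1.487 to 1.503 with siCENPF, 1.51 to 1.68 with siFOXM1, 1.49 to 1.66 with siCENPF+siFOXM1 and 1.36 to 1.48 with siNeg, so that its share was higher in all knockdown libraries. MCM7 stood at 2.01 to 2.15 with siCENPF, 2.15 to 2.43 with siFOXM1, 2.11 to 2.32 with siCENPF+siFOXM1 and 2.04 to 2.12 with siNeg, so that siFOXM1 lay above siNeg without overlap and the other knockdown groups overlapped it. MCM3 stood at 1.03 to 1.19 with siCENPF, 1.10 to 1.13 with siFOXM1, 1.10 to 1.1338 with siCENPF+siFOXM1 and 1.1338 to 1.16 with siNeg, so that siFOXM1 lay below siNeg, siCENPF+siFOXM1 reached its lower end and siCENPF overlapped it. The ratios of MCM2 and MCM5 overlapped siNeg in every knockdown group. No test was run on these ratios, and no share over all genes is at hand for their separation. Each subunit also enters the ratios of the other 5, so the ratios are not independent of one another.

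**Figure D4:**
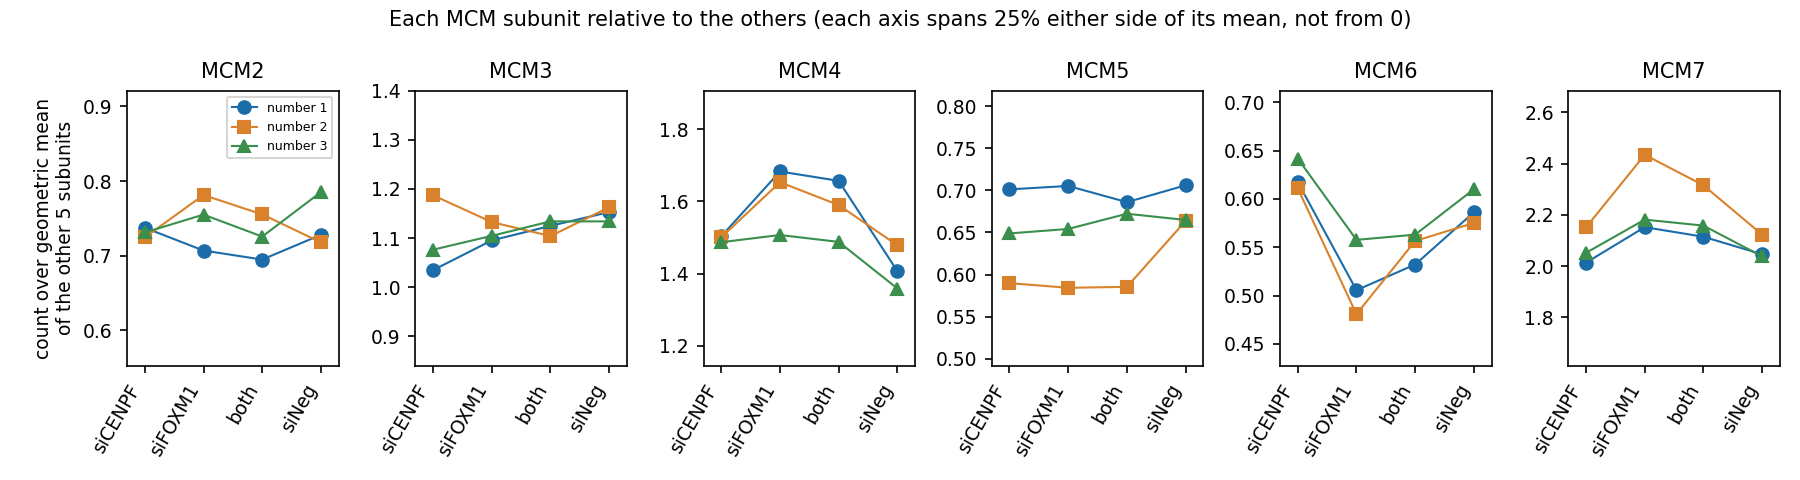
Normalized count of each ring subunit over the geometric mean of the other 5 (vertical axes, which do not start at 0) in the 3 libraries of siCENPF, siFOXM1, both siRNAs and siNeg, joined by replicate number. MCM6 is at 0.563 or less in every library given the FOXM1 siRNA, against 0.575 or more in every siNeg library.

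The ratio of CDT1 to its inhibitor GMNN, in normalized counts not corrected for length, was 0.922, 0.709 and 1.01 with siCENPF, 1.14, 0.853 and 1.02 with siFOXM1, 0.983, 0.742 and 1.06 with siCENPF+siFOXM1, and 1.05, 0.989 and 1.02 with siNeg. Number 2 was the lowest in all 4 groups. In each knockdown group number 2 lay below the siNeg range, as did number 1 with siCENPF and with siCENPF+siFOXM1, while siFOXM1 number 1 and siCENPF+siFOXM1 number 3 lay above it. CDC6 relative to the geometric mean of MCM2 to MCM7 averaged 0.540 ± 0.091 with siCENPF, 0.535 ± 0.101 with siFOXM1, 0.545 ± 0.071 with siCENPF+siFOXM1 and 0.538 ± 0.105 with siNeg (SD, n = 3 each).

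Levels between genes were compared per length, as RPKM worked out from the recovered reads and the length of the principal transcript. In siNeg, MCM7 was highest at 102.5 ± 15.3, followed by MCM3 at 57.9 ± 8.50 and MCM4 at 52.7 ± 7.00 (SD, n = 3 for each gene). GMNN (46.4), MCM2 (35.8), MCM5 (33.8) and MCM6 (28.6) came next, and CDC6 (18.5), CDT1 (18.4) and MCM10 (13.7) were lowest. MCM7 exceeded MCM3 in 12 of 12 libraries, and MCM6 exceeded CDC6 in 12 of 12, without overlap in siNeg. GMNN exceeded MCM2, MCM5 exceeded MCM6 and CDT1 exceeded MCM10 in 12 of 12 libraries too. MCM3 exceeded MCM4 in 6 of 12, CDC6 exceeded CDT1 in 9 of 12, and MCM4 exceeded GMNN and MCM2 exceeded MCM5 in 10 of 12. Ranges over the siNeg libraries overlapped for all neighbours in this order but MCM7 with MCM3 and MCM6 with CDC6.

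The order depends on the length used. Over the union of annotated exons, an alternative chosen after seeing the data, MCM7 (69.1) and MCM3 (50.9) remained highest in siNeg and MCM10 (7.93) lowest, while GMNN stood at 23.6 and MCM5 at 16.3. The authors' deposited FPKM table placed MCM6 highest, at 21.3 ± 3.83 FPKM in siNeg, against 13.2 ± 1.96 for MCM7 (SD, n = 3 each). The authors' gene width was 5025 bases for MCM6 and 22968 for MCM7, while their principal transcripts have 3736 and 2957 bases. FPKM was therefore not used to rank these genes, and comparisons of a gene between groups do not depend on its length.

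**Figure D5:**
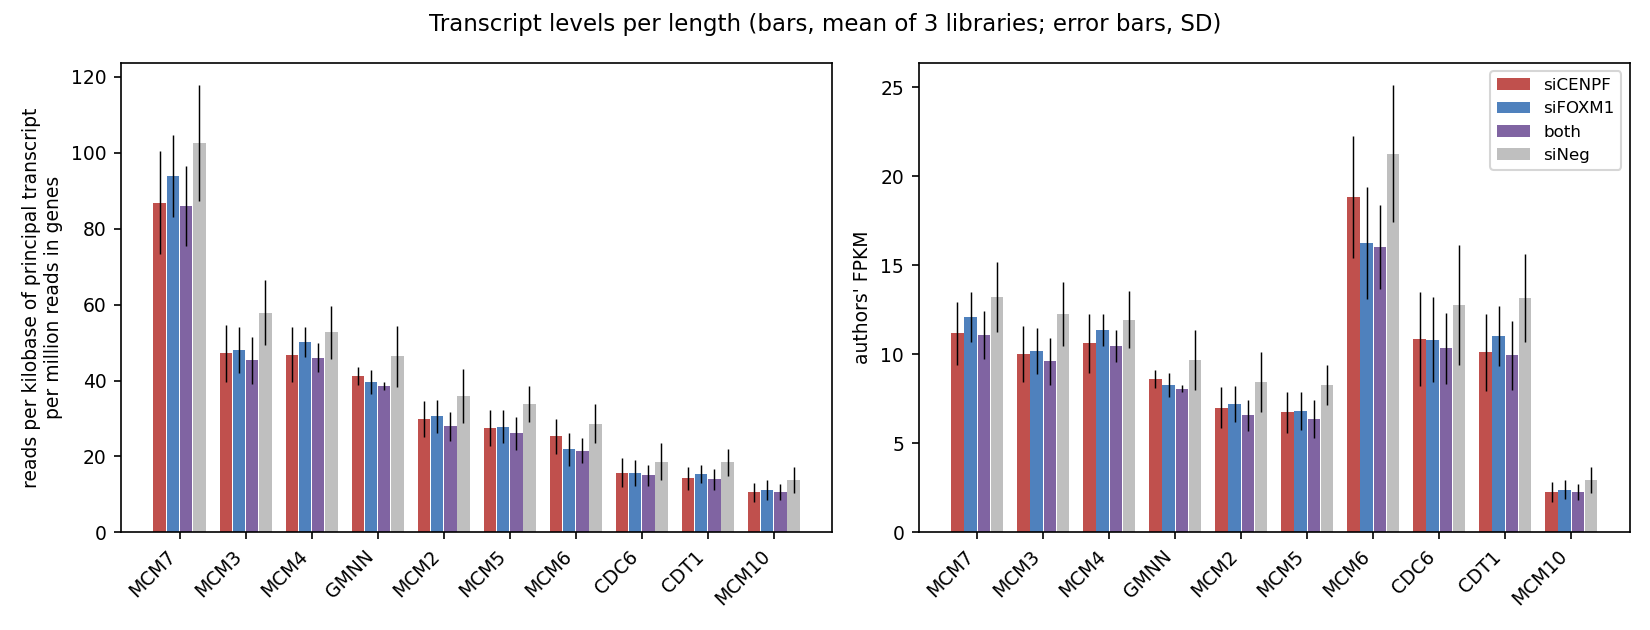
Level per length of each gene in siCENPF, siFOXM1, both siRNAs and siNeg (mean of 3 libraries, error bars SD), as RPKM over the principal transcript (left) and as the authors' FPKM (right). MCM7 is highest on the left, at 102.5 in siNeg, and MCM6 on the right, at 21.3.

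Genes whose profile over the 12 libraries came nearest to that of the ring were ranked by the root mean square difference between their log2 deviations and the mean deviation of MCM2 to MCM7. Among 11098 genes with a mean of at least 100 normalized counts the median difference was 0.25, and a gene that did not vary would stand at 0.198. RP11-872D17.4 was nearest at 0.0318, followed by the mismatch repair gene MSH6 (0.0666), SSRP1, a subunit of the histone chaperone FACT (0.0685), and PARP1, a sensor of DNA breaks (0.0742). RP11-872D17.4 (ENSG00000254662, chromosome 11, 57325603 to 57327958) is antisense to SSRP1 (ENSG00000149136) and shares 140 of its 311 exon bases with it. Without a stated strand setting their reads cannot be told apart. By the same measure MCM3 stood at 0.0422, MCM2 at 0.0428 and MCM6, the farthest subunit, at 0.0981, each being part of the mean. CDC6, CDT1 and MCM10, which are not, stood at 0.21, 0.21 and 0.25, farther from the ring profile than a gene that did not vary, and GMNN stood at 0.16.

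Other genes of the licensing pathway were described by the same fits. Of 7 measured genes of the origin recognition complex and its partners, 1 fell with the block in each of the 3 comparisons. The shares of all genes called lower with the block were 1.66% with siCENPF, 4.23% with siFOXM1 and 3.72% with siCENPF+siFOXM1, and they are the background for the counts of genes that fell in the lists below too. The gene was ORC1, the subunit that is degraded and remade in each cycle, at log2 -0.46 with siCENPF, -0.53 with siFOXM1 and -0.63 with siCENPF+siFOXM1 (limma adjusted p = 0.0032, 0.000432 and 7.07e-05 with the block; 0.992, 0.645 and 0.575 without). The median log2 fold changes of the 7 were -0.08, -0.04 and -0.08. Of the 4 other MCM-domain proteins and their partners, 0 passed in any comparison, with or without the block.

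Of 13 genes of helicase activation and origin firing, 2 fell with siCENPF, 1 with siFOXM1 and 4 with siCENPF+siFOXM1 with the block, and 0 passed without it. The count of 1 of 13 with siFOXM1 is near the share of all genes called lower, 4.23%. GINS2, a subunit of the GINS complex that joins the helicase, stood at log2 -0.41, -0.32 and -0.48 with siCENPF, siFOXM1 and siCENPF+siFOXM1 (limma adjusted p = 0.00212, 0.0129 and 0.000291 with the block). GINS1, another subunit, fell with siCENPF by 0.51 and with siCENPF+siFOXM1 by 0.29 (limma adjusted p = 0.000525 and 0.0387 with the block), and stood at -0.18 with siFOXM1 (0.236). GINS4 and TOPBP1, a scaffold of origin firing, fell with siCENPF+siFOXM1 by 0.25 and 0.21 (limma adjusted p = 0.0332 and 0.0312 with the block). The medians of the 13 were -0.13, -0.04 and -0.12.

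Of 13 genes that control licensing factors, 12 were measured, and 1 fell with siCENPF, 3 with siFOXM1 and 2 with siCENPF+siFOXM1 with the block. CCNF, which encodes the cyclin F that targets CDC6 for degradation, fell with siFOXM1 and with siCENPF+siFOXM1 by 0.64 and 0.65 on the log2 scale, also without the block (limma adjusted p = 0.0025 and 0.00227). With siCENPF it stood at -0.18 (limma adjusted p = 0.863 without and 0.162 with the block). DTL, the substrate receptor of the ligase that degrades CDT1 in S phase, fell with the block in all 3 groups, by 0.29 with siCENPF, 0.27 with siFOXM1 and 0.36 with siCENPF+siFOXM1 (limma adjusted p = 0.00197, 0.00208 and 0.000119). CUL4A, a cullin of that ligase, fell with siFOXM1 by 0.23 (limma adjusted p = 0.00267 with the block).

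Of 17 E2F and G1/S regulators, 3 fell with siCENPF, 2 with siFOXM1 and 4 with siCENPF+siFOXM1 with the block, while 0, 1 and 2 rose, and 0 passed without it. Of all genes, 2.86%, 4.48% and 4.18% were called higher with the block, and the 1 of 17 that rose with siFOXM1 is near that share. E2F1, an activator of licensing genes, stood at log2 -0.38 with siCENPF, -0.29 with siFOXM1 and -0.39 with siCENPF+siFOXM1 (limma adjusted p = 0.002, 0.0126 and 0.000927 with the block). CCNE2, a cyclin of S phase entry, stood at -0.30, -0.38 and -0.39 in the same order (0.0191, 0.00141 and 0.00115). RBL2, which encodes the pocket protein p130, rose with siFOXM1 by 0.35 and with siCENPF+siFOXM1 by 0.28 (limma adjusted p = 0.00625 and 0.037 with the block), and E2F4, its partner in repression, with siCENPF+siFOXM1 by 0.22 (0.0281). E2F2 fell with siCENPF by 0.51 and with siCENPF+siFOXM1 by 0.64 (limma adjusted p = 0.0299 and 0.00366 with the block), and the repressor gene E2F7 with siCENPF+siFOXM1 by 0.33 (0.00395). RBL2 and E2F4 were named after their values were seen, as the rising members of the list.

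As a sign of RNA quality, mitochondrially encoded mRNAs are given beside these counts. With the block 2 of 13 rose with siCENPF, 3 with siFOXM1 and 0 with siCENPF+siFOXM1, where 2.86%, 4.48% and 4.18% of all genes were called higher. Estimates were above 0 for 13 of 13 with siCENPF and with siFOXM1 and for 11 of 13 with siCENPF+siFOXM1, with medians of 0.11, 0.13 and 0.07 on the log2 scale, while 10 of 10 members were below 0 in each comparison. Their summed level ran from 20802 to 26274 FPKM with siCENPF, from 21775 to 25692 with siFOXM1, from 20775 to 24606 with siCENPF+siFOXM1 and from 18257 to 24218 with siNeg. Their part in the results was not tested.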

How the data were processed

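Libraries of polyadenylated RNA were made with a NEBNext Ultra II kit, per the labels' protocols. Per the submitters' processing notes, bcl2fastq, Trimmomatic, TopHat and edgeR were run against hg38; no source used here states versions, strand setting or scaling method. The authors deposited a table of normalized counts (14862 genes), which is a signal in units like counts. The authors deposited FPKM for 60279 genes, that is reads per length of the gene and depth, with gene widths given in the file headers. Per the file headers, the authors' edgeR tables give CPM, log2 fold change, likelihood ratio score and p-value. The number of sample columns that could not be mapped was 0.

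Reads were recovered from the deposited CPM (100% of values whole within 0.01 reads in every library), which covered 14306 to 14556 genes per library. Because some genes were filtered out of a comparison, the reads used for all genes were then taken from the deposited FPKM, width and depth. This gave 14556 genes in 12 libraries, where 0 of 172773 values shared with CPM gave another whole number of reads. limma (3.58.1, R 4.3.3; trend, robust) was fitted to log2(normalized count + 1) in 12 libraries as 4 group means, keeping 14857 genes that reached 10 normalized counts in 3 libraries or more; tests are two-sided. This scale understates changes of genes with low values. Alternatives were the replicate block, edgeR (4.0.16) and DESeq2 (1.42.0) on recovered reads, pseudocounts of 0.5 and 5, no filter, FPKM (pseudocount 0.5), quantile scaling, fewer groups and libraries left out; the fits were tested on simulated data. Gene positions are the authors', on hg38; exon overlaps and lengths come from GENCODE 29.

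Replicate numbers were taken from the labels. Deviations from group means correlated at 0.272 to 0.639 across genes in 18 pairs of libraries of the same number, so the numbers were taken to pair the samples. In 36 other pairs they correlated at -0.51 to 0.025. Deviations cancel within a group, so high values in the same-number pairs force low ones in the others, which are no separate evidence. The members, lists and tests were chosen with earlier results of these data known. Named genes are the members, both targets, up to 4 genes per list with the smallest blocked adjusted p among those past 0.05, and the 5 genes nearest to the ring in profile, of which 1 is not reported here.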

Additional observations from a re-analysis of the deposited data

How the results depend on the processing

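Without a replicate block, 0 members passed in any comparison under any setting run (pseudocounts, filter, FPKM, quantile scaling, edgeR, DESeq2, fewer groups, libraries left out). Of 780 values of single members in the 3 comparisons with siNeg under these settings and the block, 779 kept their sign; MCM4 in siFOXM1 minus siNeg turned to 0.0341 without siNeg library 3 (range over single libraries removed, -0.14 to 0.03), and the cause was not tested. With the replicate block limma called 6 members in siCENPF, 7 in siFOXM1 and 9 in siCENPF+siFOXM1 against siNeg, 1 in siCENPF+siFOXM1 against siCENPF and 1 in siFOXM1 against siCENPF; edgeR with the block called 7, 7, 10, 1 and 1. With 1 replicate number left out of the blocked fit the members called ran from 3 to 7 in siCENPF, 2 to 8 in siFOXM1 and 5 to 9 in siCENPF+siFOXM1 against siNeg, and from 0 to 1 in each of the other comparisons named. They were fewest without number 3, with 3, 2 and 5 (3, 3 and 8 without number 1). With 1 library left out, chosen after seeing the data, they ran from 5 to 7, 3 to 8 and 8 to 9, and 0 to 1 in the others. Signs turned in other comparisons: of the 10 interactions 0 were below 0, but 6 without siNeg library 3 (median -0.01), and of the 10 differences between siFOXM1 and siCENPF 4 were below 0, but 2 to 8 with 1 library left out, all without the block; in siCENPF+siFOXM1 against siCENPF it was 9, and 2 to 10, and against siFOXM1 10, and 4 to 10. The block changed no call in siCENPF+siFOXM1 against siFOXM1 or in the interaction. With 3 libraries per group the unblocked intervals are wide, while reads per member and library numbered 339 to 12491.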

Other observations

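Genes of S phase other than the members fell with the block in 8 of 31 cases with siCENPF, 14 with siFOXM1 and 20 with siCENPF+siFOXM1, and in 0 without it, with median log2 fold changes of -0.20, -0.19 and -0.26. RRM2, a subunit of ribonucleotide reductase, stood at -0.24, -0.35 and -0.44 (limma adjusted p = 0.00614, 4.84e-05 and 1.91e-06 with the block). CLSPN, a checkpoint mediator at the fork, stood at -0.28, -0.37 and -0.50 (0.0162, 0.000817 and 2.15e-05), and FEN1, a nuclease of lagging strand synthesis, at -0.28, -0.22 and -0.40 (0.00323, 0.0178 and 4.41e-05). HELLS, a chromatin remodeller, fell with siFOXM1 by 0.39 and with siCENPF+siFOXM1 by 0.33 (limma adjusted p = 0.000465 and 0.00241 with the block).

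Genes of G2 and M phase were split in direction. Of 25, with the block, 3 fell with siCENPF, 7 fell and 3 rose with siFOXM1, and 7 fell and 2 rose with siCENPF+siFOXM1. Without the block 0, 4 and 3 fell. Estimates were below 0 for 23 of 25 with siCENPF, 10 of 25 with siFOXM1 and 14 of 25 with siCENPF+siFOXM1. The median log2 fold changes were -0.11, 0.06 and -0.01 in that order. Genes named below are those with the smallest blocked adjusted p, all of which fell with siFOXM1, and those that rose are not named. Of all genes, 4.48% with siFOXM1 and 4.18% with siCENPF+siFOXM1 were called higher with the block. CCNA2 and CCNB1, cyclins of S phase and mitosis, fell with siFOXM1 by 0.63 and 0.67 and with siCENPF+siFOXM1 by 0.58 and 0.67 (limma adjusted p = 0.0054, 0.0113, 0.0104 and 0.0140 without the block). With siCENPF they stood at -0.07 and -0.09 (adjusted p = 1.00). NEK2, a centrosomal kinase, fell by 0.84 and 0.82 with siFOXM1 and siCENPF+siFOXM1 (limma adjusted p = 0.028 and 0.0461 without the block), and KIF20A, a kinesin of cytokinesis, by 0.74 with siFOXM1 (0.0363).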
